A study of Mus musculus with 2 samples.

Results

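The Wnt pathway genes that encode secreted ligands, receptors and modulators were followed across the cell types of the newborn mouse kidney. The set was chosen by symbol alone: the Wnt ligands, the Frizzled receptors (Fzd), the R-spondins Rspo1 to Rspo4, the R-spondin receptors Lgr4 to Lgr6, the secreted antagonists Sfrp1 to Sfrp5 and Dkk1 to Dkk4, the co-receptors Lrp5 and Lrp6, the ubiquitin ligases Znrf3 and Rnf43, and the target genes Axin2 and Lef1. This gave 50 of the 32285 genes listed: 19 ligands, 10 Frizzled genes, 4 R-spondins, 3 Lgr genes, 4 Sfrp genes, 4 Dkk genes, 2 co-receptors, 2 ligases and 2 targets. Single-cell RNA sequencing of kidneys at postnatal day 0 supplied 2 libraries, which form 1 group of n = 2. Both carry the genotype Rbpj c/+ ; Foxd1cre/+, that is, 1 conditional copy of Rbpj, the DNA-binding partner of Notch receptors, with Cre driven by Foxd1, a gene of stromal progenitors. No other genotype was analysed here, so every value below belongs to this background and no effect of the genotype could be measured. The libraries are called 1 and 2 in the order of deposit. The labels do not say whether they came from separate animals, so the tests measure only a spread between these 2 libraries. The overall library difference was removed as a block, so this spread is that of the differences between types. It was estimated jointly over all types fitted.

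Wnt proteins bind a Frizzled receptor together with Lrp5 or Lrp6, which stabilizes beta-catenin and lets TCF/LEF factors switch on targets such as Axin2 and Lef1; other Wnt signals act through Frizzled receptors without beta-catenin. Znrf3 and Rnf43 remove Frizzled receptors from the cell surface, and R-spondins bound to Lgr receptors block that removal. Sfrp proteins bind Wnt ligands, and Dkk1 and Dkk2 bind the co-receptors. In the developing kidney, Wnt9b from the ureteric epithelium acts on nephron progenitors, Wnt4 drives their conversion to epithelium, Wnt11 marks the branching ureteric tips, and Wnt7b from the collecting duct acts on the medulla.

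The promoters of Wnt11, Axin2 and Lef1 are shown because these genes were higher both in ureteric tips than in collecting duct and in Penk-positive than in Foxd1-positive stroma. Fzd10 met the same description, but its window lies within the annotated gene and is not shown. Each is the 250 bases before a RefSeq start (GRCm38.p6), outside the annotated gene: Wnt11 at chr7:98834862-98835111, + strand, Axin2 at chr11:108920099-108920348, + strand, and the first of the listed starts of Lef1 at chr3:131110047-131110296, + strand. Capitals mark the TCF/LEF core CTTTGA on either strand (TCAAAG when read on the other).
Wnt11: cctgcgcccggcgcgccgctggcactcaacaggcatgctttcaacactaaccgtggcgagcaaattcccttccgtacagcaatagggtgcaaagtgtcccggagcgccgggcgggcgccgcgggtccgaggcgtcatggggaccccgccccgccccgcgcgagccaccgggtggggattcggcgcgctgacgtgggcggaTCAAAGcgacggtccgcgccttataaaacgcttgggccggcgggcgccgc
Axin2: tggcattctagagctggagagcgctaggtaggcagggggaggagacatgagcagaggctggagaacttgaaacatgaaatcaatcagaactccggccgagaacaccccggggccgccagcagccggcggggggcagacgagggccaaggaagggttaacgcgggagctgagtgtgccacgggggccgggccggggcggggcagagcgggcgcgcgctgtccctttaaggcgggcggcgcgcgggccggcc
Lef1: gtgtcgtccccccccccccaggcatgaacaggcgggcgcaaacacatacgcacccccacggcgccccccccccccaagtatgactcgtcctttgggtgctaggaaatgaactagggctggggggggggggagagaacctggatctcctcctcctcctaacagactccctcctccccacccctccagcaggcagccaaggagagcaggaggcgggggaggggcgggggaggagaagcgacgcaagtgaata

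The core occurred once in the Wnt11 window and in neither of the others. Of the 32 members with a window in the RefSeq table, 5 held the core (15.6%), against 15.8% of the 27025 genes with a full window (13.8% of 32851 windows), so the share among the members was near that of all genes. A match is a run of letters and not a measured binding site.

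UMIs (unique molecular identifiers) each count 1 captured RNA molecule. A barcode was kept as a cell if it had 3000 or more UMIs from 500 or more genes and no more than 20% of them mitochondrial. This left 5529 in library 1 and 4206 in library 2, with median depths of 15016 and 20008 UMIs. Only 6 barcodes occurred in both. Marker genes, none of them a Wnt member, assigned 4923 and 3807 cells to 17 types; 373 cells reached no type and 632 came too close to a second one, and 620 and 412 cells lay near a limit of the gate. All types are gated by markers and called "-like" in that sense. The class "other stroma", stroma-gated cells with neither Foxd1 nor Penk, was a remainder class led by Igfbp3, Col14a1 and Thbs2. Its 10 leading genes held no stromal marker of its own, but Clca3a1 and Lox, listed for Foxd1-positive and Penk-positive stroma. The 10 leading genes of every other type included at least 1 of its own markers. The gate used these markers, so this does not test the type names. Leading genes of distal convoluted or connecting tubule cells also included Tmem52b, listed for the loop of Henle. Free RNA was estimated from haemoglobin genes at 2.89% to 7.20% of a type's UMIs in library 1 and at 0.286% to 0.670% in library 2; the erythroid cells are left out of this estimate. Levels are given as CPM, counts per 1000000 UMIs summed over the cells of a type, for library 1 and then library 2.

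Of the 50 members, 36 passed the filter on low counts, and all 36 differed between the 16 types that held at least 20 cells in each library (edgeR quasi-likelihood test, Benjamini-Hochberg adjusted p below 0.05). That share says little by itself, since 96.4% of the 16820 genes tested also differed. Members also differed in how evenly they were spread over types. For the median member that passed, the highest type held 29.8% of the CPM summed over types, and for the median of all genes tested 15.2%. The median was 50.3% for the 3 Dkk genes, 43.7% for the 2 R-spondins and 39.1% for the 11 ligands that passed, but 19.0% for 9 Frizzled genes and 12.9% for the 2 co-receptors. These medians are a description of these libraries. The highest type was the same in both libraries for 25 of the 36. In all, 32 members averaged at least 20 CPM in a type and are described one by one.

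**Figure D1:**
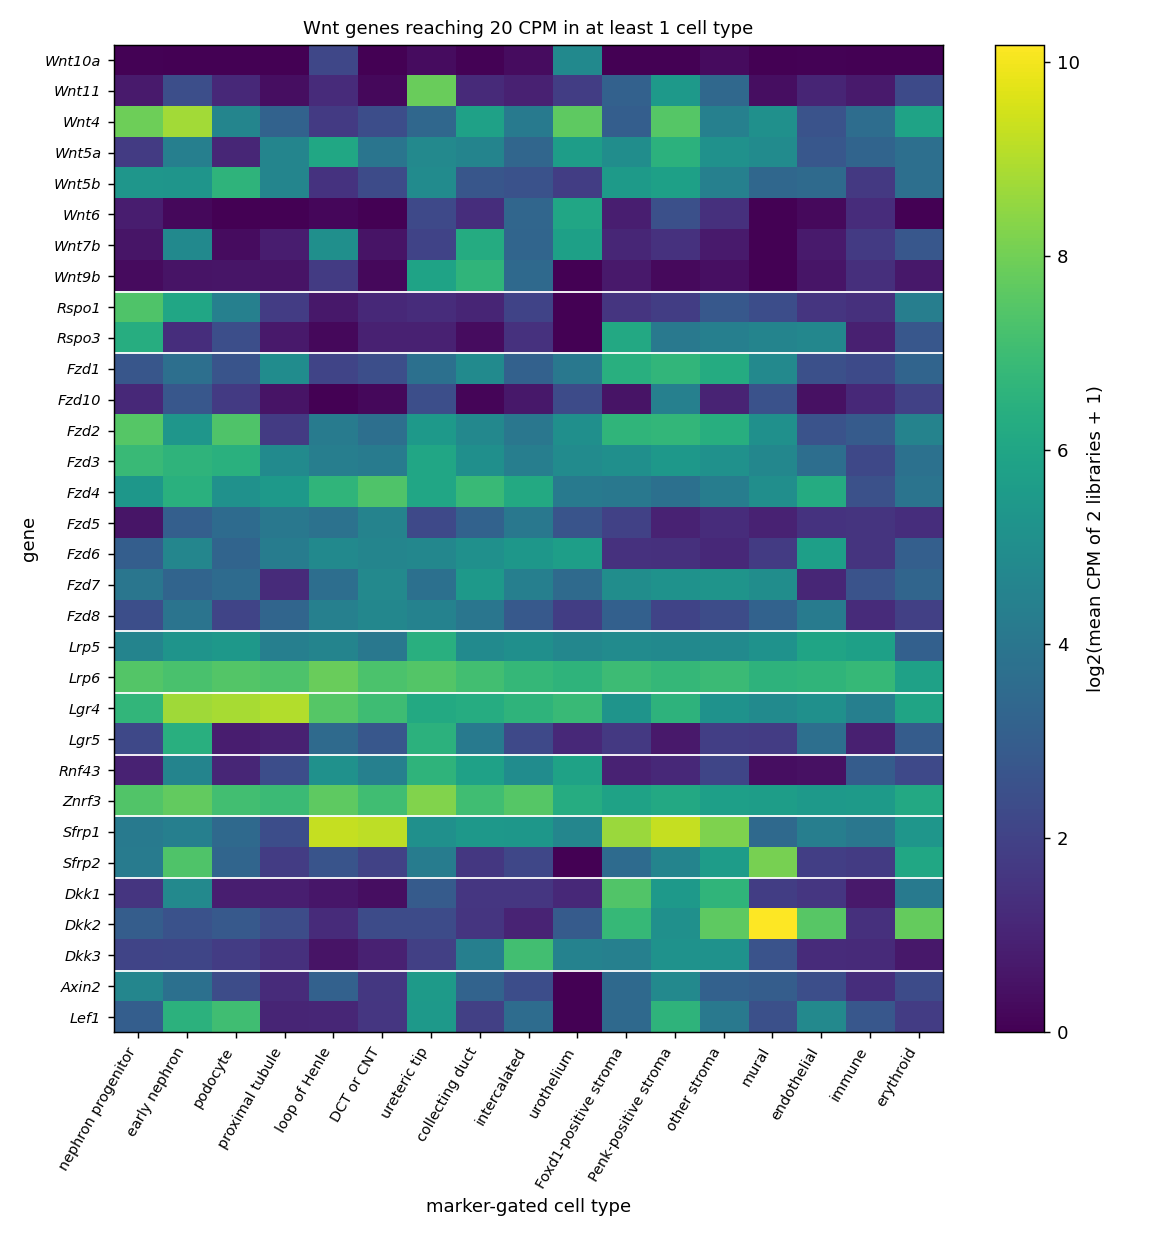
Colour gives log2 of the mean CPM of 2 libraries plus 1, for the 32 members that reached 20 CPM in at least 1 marker-gated cell type (rows, grouped by role with white lines) across 17 types (columns; DCT or CNT, distal convoluted or connecting tubule). Ligand and Dkk rows have 1 or a few bright cells, as Wnt11 in the ureteric tip and Dkk2 in mural cells, while Lrp6 and Znrf3 are bright across nearly all columns.

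The more abundant ligands were high in different compartments. Wnt11 (chr7:98835112-98855195, + strand, GRCm38) reached 237 and 226 CPM in ureteric tip cells. It stood at 34.0 and 53.2 CPM in Penk-positive stroma, its second highest type, and at 0.625 and 2.01 CPM in the collecting duct. Tip cells held 74.9% of its summed CPM. After thinning every cell to 3000 UMIs, 45.9% and 40.5% of tip cells carried a Wnt11 UMI (exact 95% binomial intervals 33.1% to 59.2% and 25.6% to 56.7%), and none of the immune cells did, a type that should lack the gene. Without thinning the tip shares were 83.6% and 90.5% at median depths of 45055 and 37143 UMIs.

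Wnt9b (chr11:103727364-103749821, - strand) was high in both ureteric compartments, at 134 and 65.4 CPM in the collecting duct and 71.5 and 45.5 CPM in the tip. The next type, intercalated cells of the collecting system, stood at 13.4 and 7.04 CPM. Every other type was under 3 CPM in both libraries. Wnt7b (chr15:85535437-85582473, - strand) was likewise highest in the collecting duct, at 93.6 and 59.4 CPM, but low in the tip at 3.80 and 2.47 CPM. It was also present in loop of Henle cells at 34.0 and 31.7 CPM and early nephron cells at 22.9 and 32.3 CPM. Wnt7b and Wnt9b thus overlapped in the collecting duct and separated in tip and loop.

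Wnt4 (chr4:137277489-137299726, + strand) was highest in early nephron cells, at 475 and 401 CPM, and next in nephron progenitors at 319 and 168 CPM. Of the fitted types, Penk-positive stroma followed with 113 and 246 CPM, against 7.17 and 7.17 CPM in Foxd1-positive stroma. The ranges of progenitors and Penk-positive stroma overlapped, so their order is not resolved. Within the early nephron class, clustering made without Wnt genes divided the level further. A cluster's leading genes are those highest against the other clusters of its class, so the markers shared by the class need not be among them. The cluster led by Sdk2, Lama4 and Grm7 had 1082 and 1303 CPM, the one led by Bnc2 and Hdc 469.9 and 237 CPM, and the one led by Tfap2b and Spon1 67.0 and 89.1 CPM. In stroma, the cluster led by Nts and Cxcl14, of which 87.8% of cells were Penk-positive, had 303 and 418 CPM. At 3000 UMIs per cell, 47.3% and 35.0% of early nephron cells and 13.9% and 27.3% of Penk-positive stromal cells carried a Wnt4 UMI, against 1.88% and 3.33% of immune cells (unthinned 70.4% and 63.5%, 21.5% and 39.7% and 4.38% and 7.78%).

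Wnt5a and Wnt5b, known for beta-catenin-independent signalling, had broader patterns than the ligands above. Their highest types held 23.0% and 24.5% of the summed CPM. Wnt5a (chr14:28504750-28527448, + strand) was highest in Penk-positive stroma at 94.96 and 88.7 CPM. Loop of Henle cells came next at 69.9 and 60.7 CPM, and nephron progenitors and podocytes were the lowest at 2.70 and 2.09 and at 1.03 and 1.21 CPM. Wnt5b (chr6:119432531-119544347, - strand) was highest in podocytes in library 1 and in Penk-positive stroma in library 2: podocytes had 140.1 and 56.6 CPM and Penk-positive stroma 50.5 and 57.0 CPM. Their ranges overlapped at the edge, and the order of these types differed between libraries. Wnt5b stood in progenitors and early nephron cells at 38.3 and 42.2 CPM and 39.8 and 37.5 CPM, and was low in the loop of Henle at 2.13 and 1.498 CPM.

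Wnt6 and Wnt10a, neighbouring genes on chromosome 1, reached 20 CPM only in urothelium-like cells, a type too small (17 and 10 cells) for the fit. Wnt6 had 51.4 and 75.7 CPM there and 11.96 and 6.40 CPM in intercalated cells, its highest type among those fitted. Wnt10a had 20.6 and 35.1 CPM in urothelium-like cells and 1.17 and 5.73 CPM in loop of Henle cells, and did not pass the filter. Among ligands averaging under 20 CPM in every type, Wnt8b and Wnt16 are singled out after their values were seen. Wnt8b stood at 18.4 and 21.0 CPM in podocytes and 7.07 and 3.67 CPM in progenitors. Wnt16 stood at 8.15 and 14.2 CPM in early nephron cells, with 18.7 and 40.1 CPM in the Bnc2 and Hdc cluster. Wnt2 and Wnt9a, with Lgr6, complete the members that passed the filter below 20 CPM, and each stayed under 11 CPM in every type and library. Within stroma, the cluster led by Clec3b and Dlk1 held 31.5 and 33.5 CPM of Wnt2.

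**Figure D2:**
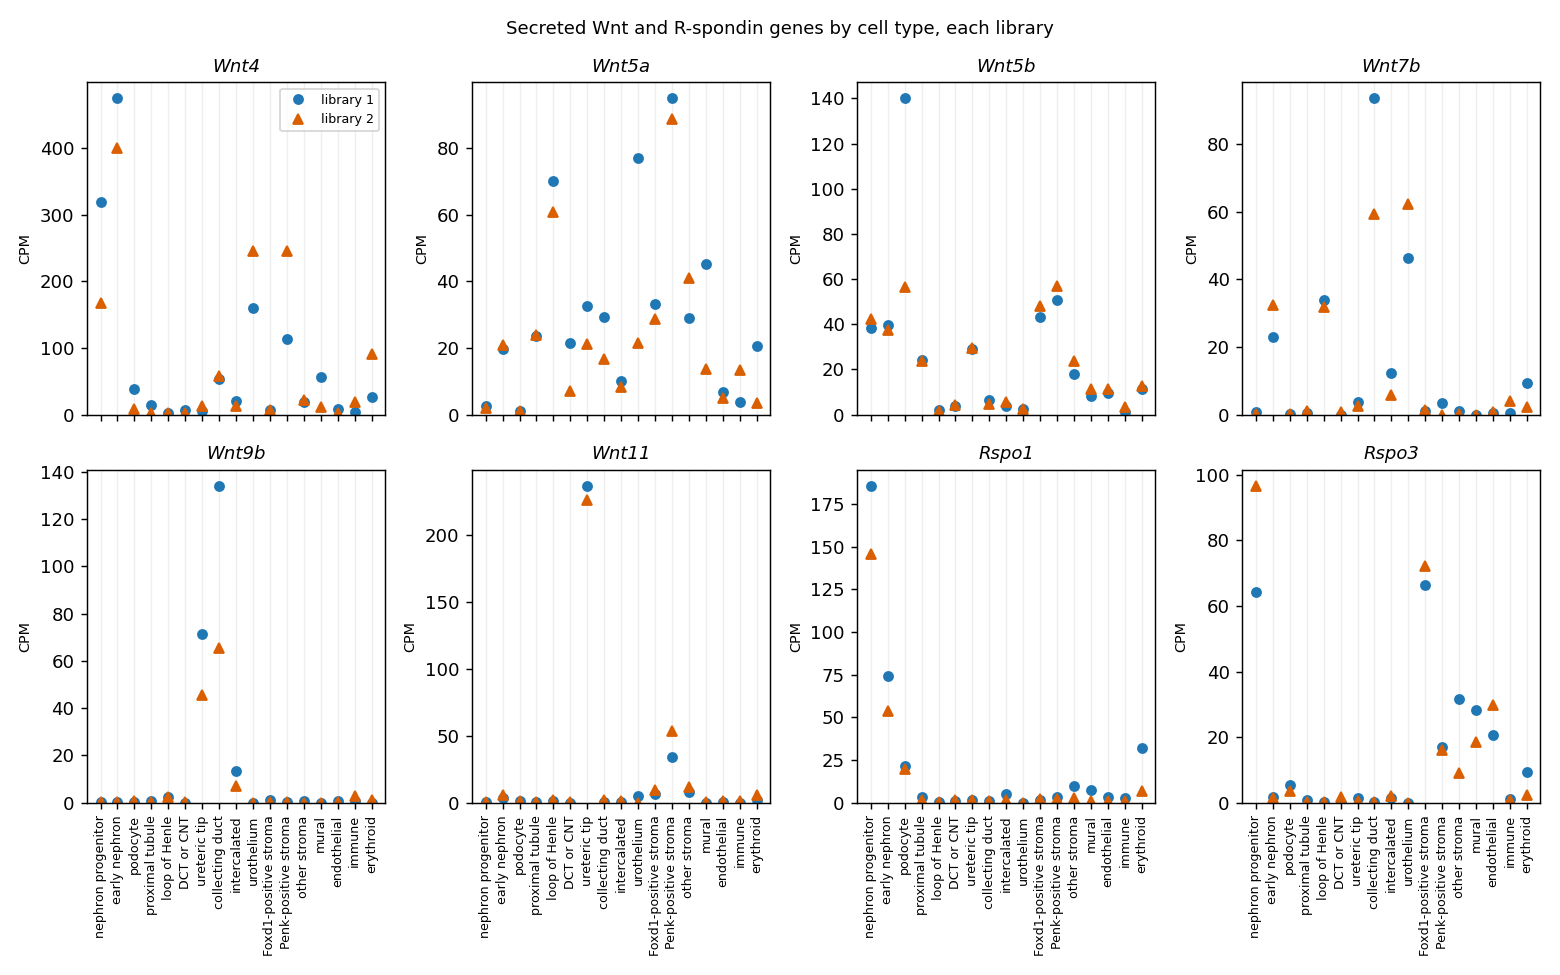
Each panel shows 1 ligand or R-spondin gene, with CPM on a linear vertical axis from 0, the 17 marker-gated types on the horizontal axis, and a circle for library 1 and a triangle for library 2. Wnt11 has 1 high type (237 and 226 CPM in the tip), Wnt9b 2 neighbouring ones, Rspo1 is highest in nephron progenitors, and Wnt4 is highest in early nephron cells with further high points in progenitors, urothelium-like cells and Penk-positive stroma.

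R-spondins, which amplify Wnt signals, were highest in progenitors and stroma. Rspo1 (chr4:124986430-125009099, + strand) was highest in nephron progenitors at 185 and 146 CPM. It was lower in early nephron cells at 74.4 and 53.7 CPM and in podocytes at 21.5 and 19.8 CPM, and stayed under 4 CPM in Foxd1-positive and Penk-positive stroma. Rspo3 (chr10:29452416-29535867, - strand) was high in progenitors at 64.3 and 96.6 CPM and in Foxd1-positive stroma at 66.3 and 72.3 CPM, whose ranges overlapped. Endothelial cells had 20.6 and 29.9 CPM and early nephron cells 1.70 and 1.39 CPM. The stromal cluster led by Cadm1 and Sgcd, 81.4% of it Foxd1-positive, had 109 and 128 CPM of Rspo3. At 3000 UMIs per cell, 41.5% and 34.6% of progenitors carried an Rspo1 UMI and 14.1% and 13.9% of Foxd1-positive stromal cells an Rspo3 UMI (unthinned 91.3% and 93.0% and 28.4% and 32.1%); immune cells were at 0.625% and 0% for Rspo1 and 0.625% and 0% for Rspo3.

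Frizzled receptors were shared more widely, and their leading types lay in progenitors, stroma, distal tubule, collecting duct and endothelium. Fzd2 and Fzd3 were highest in nephron progenitors, at 170.1 and 185 CPM and at 120.3 and 120.1 CPM. Fzd2 was nearly as high in podocytes at 149 and 180.3 CPM, where the ranges overlapped, and lowest in proximal tubule at 2.61 and 2.18 CPM. Fzd1 was highest in Penk-positive and Foxd1-positive stroma, at 92.6 and 113 CPM and at 83.2 and 86.1 CPM. Fzd10 was highest in Penk-positive stroma, at 11.1 and 30.05 CPM against 7.09 and 4.66 CPM in early nephron cells, its second type.

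Fzd4 was high in distal epithelium and endothelium, with 187 and 143 CPM in distal convoluted or connecting tubule cells, 114 and 122 CPM in the collecting duct, 109 and 91.0 CPM in the loop of Henle and 79.0 and 71.3 CPM in endothelial cells. Fzd6 was highest in endothelial cells of the fitted types, at 48.5 and 57.4 CPM, and low in the 3 stroma classes, none of which passed 2 CPM. Fzd7 was highest in the collecting duct at 42.6 and 47.3 CPM, with 33.7 and 40.9 CPM in other stroma, and lowest in endothelial cells at 0.977 and 1.35 CPM. Fzd5 and Fzd8 did not have the same leading type in both libraries. Fzd5 had 28.2 and 16.8 CPM in distal convoluted or connecting tubule cells and 11.96 and 19.8 CPM in intercalated cells. Fzd8 had 36.7 and 13.7 CPM in the former and 23.1 and 21.1 CPM in the tip. The Frizzled sum over all 10 genes ranged from 28.5 and 32.3 CPM in immune cells to 372 and 374 CPM in progenitors.

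The co-receptors had the lowest median share in 1 type of any of these gene families. Leaving out erythroid cells, whose values of 92.2 and 18.5 CPM were far apart, Lrp6 ranged from a mean of 96.1 CPM in mural cells to one of 229 CPM in the loop of Henle (283 and 174). Lrp5 ranged from 9.41 and 5.77 CPM in erythroid cells to 77.5 and 90.4 CPM in the tip. The ligase Znrf3 was highest in the tip at 283 and 331 CPM and was present in every type. Rnf43, the other ligase, was high in the collecting system and loop, with 107 and 89.6 CPM in the tip, 66.7 and 44.8 CPM in the collecting duct and 37.8 and 31.2 CPM in the loop of Henle, against 1.36 and 0.543 CPM in Foxd1-positive stroma and 0.526 and 0.238 CPM in endothelial cells. Podocytes, at 1.28 and 0.967 CPM, and proximal tubule, at 5.03 and 3.55 CPM, were low among epithelial types.

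Lgr4 and Lgr5 bind R-spondins and had different leading types. Lgr4 (chr2:109917647-110014257, + strand) was highest in proximal tubule at 507 and 526 CPM, followed by podocytes at 427 and 507 CPM and early nephron cells at 421 and 431 CPM. In proximal tubule 68.9% and 67.7% of cells carried a UMI of it at 3000 UMIs per cell (unthinned 95.6% and 95.6%), against 3.75% and 1.11% of immune cells. Lgr5 (chr10:115450311-115587780, - strand) was high in early nephron cells at 96.5 and 73.9 CPM and in the tip at 91.2 and 92.3 CPM; neither type led in both libraries. It was low in podocytes at 1.03 and 0.484 CPM and proximal tubule at 1.09 and 0.726 CPM. The early nephron cluster led by Tfap2b and Spon1 held 219 and 149 CPM of Lgr5, and an endothelial cluster led by Cxcl12 and Fbln5 held 80.7 and 88.6 CPM, while another endothelial cluster, led by Nlgn1 and Unc5c, had no Lgr5 UMI in either library.

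The secreted antagonists included genes high in stroma, mural cells and single epithelial types. Dkk2 (chr3:132085292-132180304, + strand) reached 1442 and 881 CPM in mural cells, gated by markers of the pericytes, smooth muscle and renin cells of the vessel wall. Of these markers only Ren1 was among the 10 leading genes of the class. Dkk2 stood at 259 and 146 CPM in other stroma and 243 and 132 CPM in endothelial cells. The erythroid value was 412 and 19.6 CPM, far apart between libraries, so it is not read as a level of that type. At 3000 UMIs per cell 72.7% and 59.6% of mural cells carried a Dkk2 UMI (unthinned 80.2% and 73.4%), against 1.88% and 0% of immune cells. Among endothelial clusters Dkk2 was 437 and 299 CPM in the one led by Adamts5 and Ehd3, in which Hbb-bs and Hba-a2 were also leading genes, and 502 and 288 CPM in the Cxcl12 and Fbln5 cluster, but 12.5 and 6.63 CPM in the Nlgn1 and Unc5c cluster. Whether RNA of mural cells contributed to the endothelial values was not tested.

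Dkk1 (chr19:30545863-30549665, - strand) was highest in Foxd1-positive stroma, at 213 and 123 CPM. Other stroma had 134 and 65.4 CPM, Penk-positive stroma 63.8 and 23.9 CPM and early nephron cells 32.7 and 20.9 CPM. The stromal clusters ranged from 0 and 3.35 CPM, in the one led by Clec3b and Dlk1, to 344 and 156 CPM, in the one led by Nostrin and Opcml. That cluster's 8 leading genes also included Abcc9 and Kcnj8, which are listed mural markers, and no listed stromal marker. Its cells had passed the stroma gate, and it held 255 and 205 CPM of Dkk2. Of its cells 33.9% were Foxd1-positive, 25.0% Penk-positive and 41.1% other stroma. The cluster led by Cadm1 and Sgcd, 81.4% of it Foxd1-positive, had 173 and 109 CPM of Dkk1. Dkk3 (chr7:112116017-112159057, - strand), a Dkk relative whose part in Wnt signalling is less clear, was highest in intercalated cells at 137 and 136 CPM. It stood in other stroma at 30.5 and 40.6 CPM and in Penk-positive stroma at 31.4 and 39.8 CPM. Unthinned, 71.6% and 76.6% of intercalated cells carried a Dkk3 UMI, and 38.8% and 25.5% did at 3000 UMIs per cell, against 0% and 0% of immune cells.

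Sfrp1 (chr8:23411502-23449632, + strand) was high in stroma and in distal nephron. Penk-positive stroma had 468 and 793 CPM, loop of Henle cells 569.8 and 684 CPM and distal convoluted or connecting tubule cells 559 and 588 CPM; these ranges overlapped. It was lowest in proximal tubule at 4.31 and 4.36 CPM and low in mural cells at 8.78 and 11.8 CPM. Sfrp2 (chr3:83766321-83774316, + strand) showed another distribution, with 142 and 401 CPM in mural cells and 146 and 183 CPM in early nephron cells, so that early nephron led in library 1 and mural cells in library 2. Within the early nephron, Sfrp2 was 235 and 295 CPM in the Sdk2 and Lama4 cluster and 21.4 and 22.4 CPM in the cluster led by Aadat. The former's leading genes included Tmem100 and Cldn5, listed for progenitors and podocytes, those of the Tfap2b and Spon1 cluster included Tmem52b, listed for the loop of Henle, and those of the last cluster included Aadat and Mep1a, which were also leading genes of proximal tubule.

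**Figure D3:**
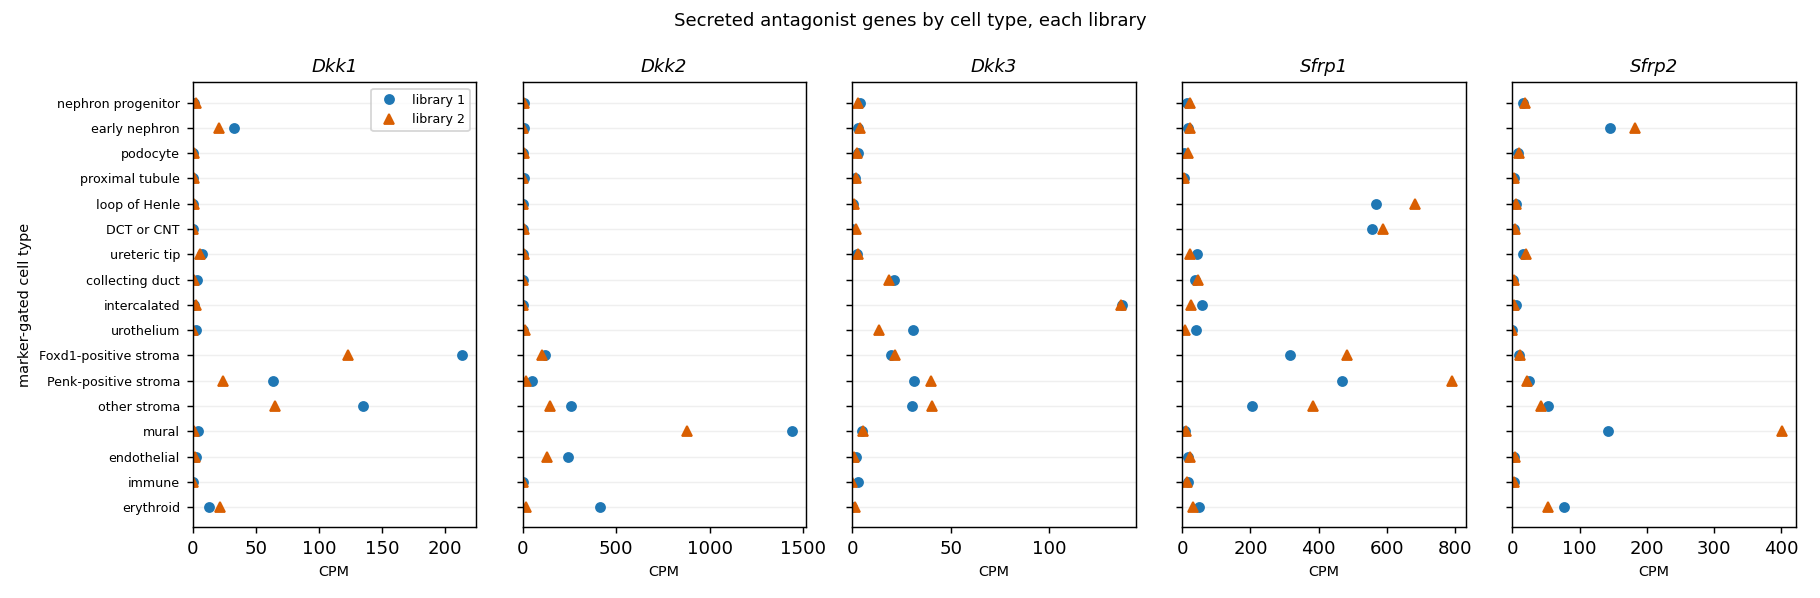
Each panel shows 1 secreted antagonist gene, with CPM on a linear horizontal axis from 0 and the 17 marker-gated types on the vertical axis (circle, library 1; triangle, library 2). Dkk1 is highest in Foxd1-positive stroma, Dkk2 in mural cells, Dkk3 in intercalated cells, and Sfrp1 is high in stroma, loop of Henle and distal convoluted or connecting tubule cells.

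Axin2 and Lef1, which beta-catenin signalling is known to switch on, had different leading types. Axin2 (chr11:108920349-108950783, + strand), a brake on the pathway, was highest in the tip at 50.9 and 40.5 CPM, followed by Penk-positive stroma at 25.7 and 28.2 CPM and nephron progenitors at 30.7 and 17.96 CPM. Lef1 (chr3:131110471-131224356, + strand), a DNA-binding partner of beta-catenin, reached 167 and 97.9 CPM in podocytes, 67.3 and 129 CPM in Penk-positive stroma and 102 and 85.2 CPM in early nephron cells. Podocytes led in library 1 and Penk-positive stroma in library 2. Podocytes had Axin2 at 6.29 and 1.93 CPM, and progenitors had Lef1 at 8.21 and 6.49 CPM. Within endothelial cells Lef1 was 4.18 and 2.21 CPM in the Nlgn1 and Unc5c cluster and 128 and 108 CPM in the Cxcl12 and Fbln5 cluster.

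Early nephron cells, gated by markers of the first epithelium formed from nephron progenitors, were compared with those progenitors. The class was mixed, so its levels are averages over clusters that could differ widely. In the Sdk2 and Lama4 cluster Wnt7b was 2.74 and 2.58 CPM, Rnf43 3.87 and 6.59 CPM and Rspo1 125 and 107 CPM. The Tfap2b and Spon1 cluster had Wnt7b at 68.5 and 71.0 CPM and Rnf43 at 61.1 and 30.7 CPM. In the Aadat cluster Rspo1 was 4.99 and 9.49 CPM. Which changes hold in each cluster was not tested. Of the 36 members tested, 17 were higher and 6 lower in early nephron cells (edgeR quasi-likelihood test with Benjamini-Hochberg adjustment), where 18.5% of all genes tested were higher and 13.0% lower. Among secreted signals Wnt7b was higher, at 22.9 and 32.3 CPM against 0.776 and 0.169 CPM. Its log2 fold change and standard error were 5.68 ± 0.50, adjusted p = 1.2e-08. Brackets below give the same quantities in this order, with the standard error worked back from the F value of the test. Rspo3 fell from 64.3 and 96.6 CPM to 1.70 and 1.39 CPM (-5.75 ± 0.40, adjusted p = 2.3e-10) and Rspo1 from 185 and 146 CPM to 74.4 and 53.7 CPM (-1.44 ± 0.24, adjusted p = 5.7e-05). Wnt4 did not pass the threshold, with 475 and 401 CPM against 319 and 168 CPM and a log2 fold change of 0.82 ± 0.59, adjusted p = 0.31. Wnt5a, Wnt11 and Wnt16 were also higher and Wnt6 was lower, all at under 21 CPM on both sides.

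Receptor genes moved in both directions. Fzd2 was 170.1 and 185 CPM in progenitors and 37.5 and 42.7 CPM in early nephron cells (-2.20 ± 0.15, adjusted p = 1.1e-10), and Fzd7 was lower too (-0.83 ± 0.24, adjusted p = 0.012). Fzd1, Fzd4, Fzd5, Fzd6, Fzd8 and Fzd10 were higher, Fzd4 at 88.6 and 86.3 CPM against 43.9 and 38.3 CPM (1.03 ± 0.15, adjusted p = 7.1e-06). Lgr5 rose from 4.17 and 3.11 CPM to 96.5 and 73.9 CPM (4.48 ± 0.29, adjusted p = 7.9e-11), Lgr4 from 89.3 and 114 CPM to 421 and 431 CPM (2.01 ± 0.23, adjusted p = 2.8e-07) and Rnf43 from 1.02 and 0.904 CPM to 28.7 and 17.7 CPM (4.50 ± 0.37, adjusted p = 2.8e-09). Lrp5 was modestly higher (0.65 ± 0.15, adjusted p = 0.0018). The antagonists Dkk1 and Sfrp2 were higher as well, the latter at 146 and 183 CPM against 16.2 and 19.5 CPM (3.14 ± 0.27, adjusted p = 5.5e-09). Both targets passed the threshold in opposite directions: Lef1 was 102 and 85.2 CPM against 8.21 and 6.49 CPM (3.60 ± 0.34, adjusted p = 1.7e-08), and Axin2 was 16.2 and 8.82 CPM against 30.7 and 17.96 CPM (-1.02 ± 0.22, adjusted p = 7.4e-04).

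Of 58 other Wnt pathway genes tested, out of 60 listed, 14 were higher and 15 lower in early nephron cells. The largest increases were in Dact2 (4.53 ± 0.31, adjusted p = 1.7e-10), Ccnd1 (3.53 ± 0.28, adjusted p = 1.6e-09), Gpc4 (3.46 ± 0.26, adjusted p = 5.2e-10) and Cthrc1 (2.47 ± 0.39, adjusted p = 3.8e-05), and the largest decreases in Dact3 (-2.12 ± 0.25, adjusted p = 4.4e-07), Tle2 (-1.73 ± 0.21, adjusted p = 7.1e-07), Tcf7l1 (-1.71 ± 0.20, adjusted p = 6.3e-07) and Draxin (-1.46 ± 0.54, adjusted p = 0.043). Ccnd1, a cyclin of the G1 phase, stood at 1115 and 1252 CPM against 88.6 and 109 CPM. The median log2 fold change of the 36 members was 0.74 and that of all genes tested 0.01.

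Ureteric tip cells, the branching ends of the collecting system, were compared with collecting duct cells, with 61 and 42 tip cells in the libraries. In the tip, 12 of 36 members were higher and 8 lower (edgeR quasi-likelihood test with Benjamini-Hochberg adjustment), against 16.0% and 19.2% of all genes tested. Wnt11 gave the largest fold change among members: 237 and 226 CPM in the tip against 0.625 and 2.01 CPM in the duct, a log2 fold change of 7.38 ± 0.30, adjusted p = 5.6e-13. Wnt5b was higher as well (2.31 ± 0.32, adjusted p = 7.0e-06). Wnt7b and Wnt4 were lower, Wnt7b at 3.80 and 2.47 CPM against 93.6 and 59.4 CPM (-4.67 ± 0.50, adjusted p = 3.6e-07) and Wnt4 at 5.83 and 13.4 CPM against 53.6 and 57.9 CPM (-2.64 ± 0.79, adjusted p = 0.012). Wnt9b was lower in the tip within each library, but the library values overlapped and the change was small (-0.82 ± 0.24, adjusted p = 0.011); its adjusted p was 0.18 with DESeq2, 0.068 without the library block and 0.088 after subtracting free RNA.

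Both target genes and Lgr5 were higher in the tip. Axin2 stood at 50.9 and 40.5 CPM against 11.05 and 6.04 CPM (2.36 ± 0.24, adjusted p = 1.8e-07), Lef1 at 47.9 and 37.5 CPM against 2.19 and 3.39 CPM (3.82 ± 0.42, adjusted p = 3.6e-07) and Lgr5 at 91.2 and 92.3 CPM against 18.3 and 15.6 CPM (2.35 ± 0.27, adjusted p = 5.9e-07). Znrf3 (1.13 ± 0.20, adjusted p = 1.2e-04), Lrp5 (1.47 ± 0.16, adjusted p = 3.1e-07) and Sfrp2 (2.98 ± 0.40, adjusted p = 5.5e-06) were also higher, and so was Rnf43 (0.74 ± 0.27, adjusted p = 0.038), whose call was lost with DESeq2 (adjusted p = 0.19), without the library block (0.15) and after subtracting free RNA (0.099). Frizzled genes went both ways: Fzd2, Fzd3 and Fzd10 were higher in the tip and Fzd1, Fzd4, Fzd5 and Fzd7 lower. Fzd7 was 14.2 and 10.96 CPM in the tip and 42.6 and 47.3 CPM in the duct (-1.93 ± 0.28, adjusted p = 1.1e-05). Fzd10 had 34 UMIs in the tip and 2 in the duct, a ratio per UMI of 45.9 with an exact 95% interval of 11.8 to 395 for counting error only. Dkk3 was lower in the tip (-2.92 ± 0.36, adjusted p = 1.9e-06).

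Of the 58 other pathway genes, 18 were higher and 9 lower in the tip. Wif1, a secreted Wnt inhibitor, stood at 20.3 and 33.7 CPM against 0.104 and 0.0915 CPM (7.84 ± 0.69, adjusted p = 4.8e-08); the duct side rests on 2 UMIs. Sp5 (4.01 ± 0.79, adjusted p = 5.8e-04), Nkd1 (3.44 ± 0.45, adjusted p = 3.5e-06) and Tnfrsf19 (3.30 ± 0.39, adjusted p = 1.0e-06) followed. The largest decreases were in Sostdc1 (-2.27 ± 0.46, adjusted p = 4.9e-04), Trabd2b (-1.60 ± 0.30, adjusted p = 2.4e-04), Wls (-1.59 ± 0.17, adjusted p = 2.0e-07), which carries Wnt proteins to the cell surface, and Tcf7l2 (-1.31 ± 0.18, adjusted p = 5.2e-06). The median log2 fold change of the members was 0.39 and that of all genes tested -0.06.

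The comparison of loop of Henle with proximal tubule set 2 nephron segments side by side. In the loop, 13 of 36 members were higher and 9 lower (edgeR quasi-likelihood test with Benjamini-Hochberg adjustment), against 21.8% and 22.6% of all genes tested. Sfrp1 gave the largest change, 569.8 and 684 CPM in the loop against 4.31 and 4.36 CPM in proximal tubule (7.04 ± 0.41, adjusted p = 3.8e-12). Wnt7b was 34.0 and 31.7 CPM against 0.485 and 1.05 CPM (5.36 ± 0.51, adjusted p = 1.8e-08), Wnt5a 69.9 and 60.7 CPM against 23.7 and 23.8 CPM (1.34 ± 0.29, adjusted p = 5.9e-04), and Rnf43 37.8 and 31.2 CPM against 5.03 and 3.55 CPM (2.90 ± 0.32, adjusted p = 1.2e-07). Axin2 (2.44 ± 0.32, adjusted p = 1.1e-06), Lgr5 (3.41 ± 0.39, adjusted p = 2.0e-07), Fzd2 (2.74 ± 0.20, adjusted p = 9.7e-11), Fzd4 (1.10 ± 0.15, adjusted p = 2.0e-06), Fzd7 (3.02 ± 0.34, adjusted p = 1.3e-07) and Fzd8 (1.11 ± 0.24, adjusted p = 5.5e-04) were higher too.

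On the proximal side stood Wnt5b, with 24.3 and 23.8 CPM against 2.13 and 1.498 CPM in the loop (-3.85 ± 0.36, adjusted p = 6.8e-09), Fzd1, with 25.6 and 34.0 CPM against 3.51 and 2.997 CPM (-3.30 ± 0.21, adjusted p = 1.2e-11), and Lgr4, with 507 and 526 CPM against 188 and 168 CPM (-1.65 ± 0.22, adjusted p = 2.3e-06). Fzd3 was lower in the loop at under 29 CPM on both sides. Rspo1, Dkk3 and Wnt9a were lower there too, at levels of a few CPM. Rspo1 was 0.638 and 0.529 CPM in the loop against 3.27 and 1.77 CPM, and Dkk3 0.319 and 0.617 CPM against 1.46 and 1.86 CPM. Wnt9a averaged at most 2.70 CPM in any fitted type. Fzd10 had no UMI in the loop and 14 in proximal tubule, at least 3.35-fold lower in the loop against a floor of 3 counts over both libraries. Wnt16 had 1 UMI in the loop and 44 in proximal tubule, a ratio per UMI of 31.6 (exact 95% interval 5.38 to 1276). Of these calls, 5 depended on a setting. Wnt11, at 0.850 and 1.94 CPM against 0.303 and 0.323 CPM, was higher in the loop (1.98 ± 0.55, adjusted p = 0.0054) but had a log2 fold change of -0.41 (adjusted p = 0.74) under the stricter marker gate. Wnt9b (2.34 ± 0.52, adjusted p = 9.0e-04) and Znrf3 (0.61 ± 0.20, adjusted p = 0.015) lost their calls when mitochondrial UMIs were limited to 10% (adjusted p = 0.09 and 0.21), Wnt16 under the stricter gate (0.092), and Fzd10 under 3 settings.

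Among the other pathway genes 17 of 58 were higher and 12 lower in the loop. Sostdc1, an inhibitor of BMP and Wnt signals, was 1382 and 1012 CPM against 121 and 69.0 CPM (3.53 ± 0.45, adjusted p = 1.0e-06), and Ccnd1 (3.42 ± 0.29, adjusted p = 1.3e-09) and Tle2 (2.75 ± 0.25, adjusted p = 3.8e-09) were higher as well, as was Wif1 at under 1 CPM (3.27 ± 1.14, adjusted p = 0.025). Frzb (-5.38 ± 0.52, adjusted p = 1.4e-08), Sp5 (-5.11 ± 0.60, adjusted p = 1.1e-06), Ror1 (-3.72 ± 0.31, adjusted p = 9.6e-10) and Bambi (-3.46 ± 0.22, adjusted p = 1.6e-11) were lower in the loop. The median log2 fold change was 0.44 for the members and 0.00 for all genes tested.

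**Figure D4:**
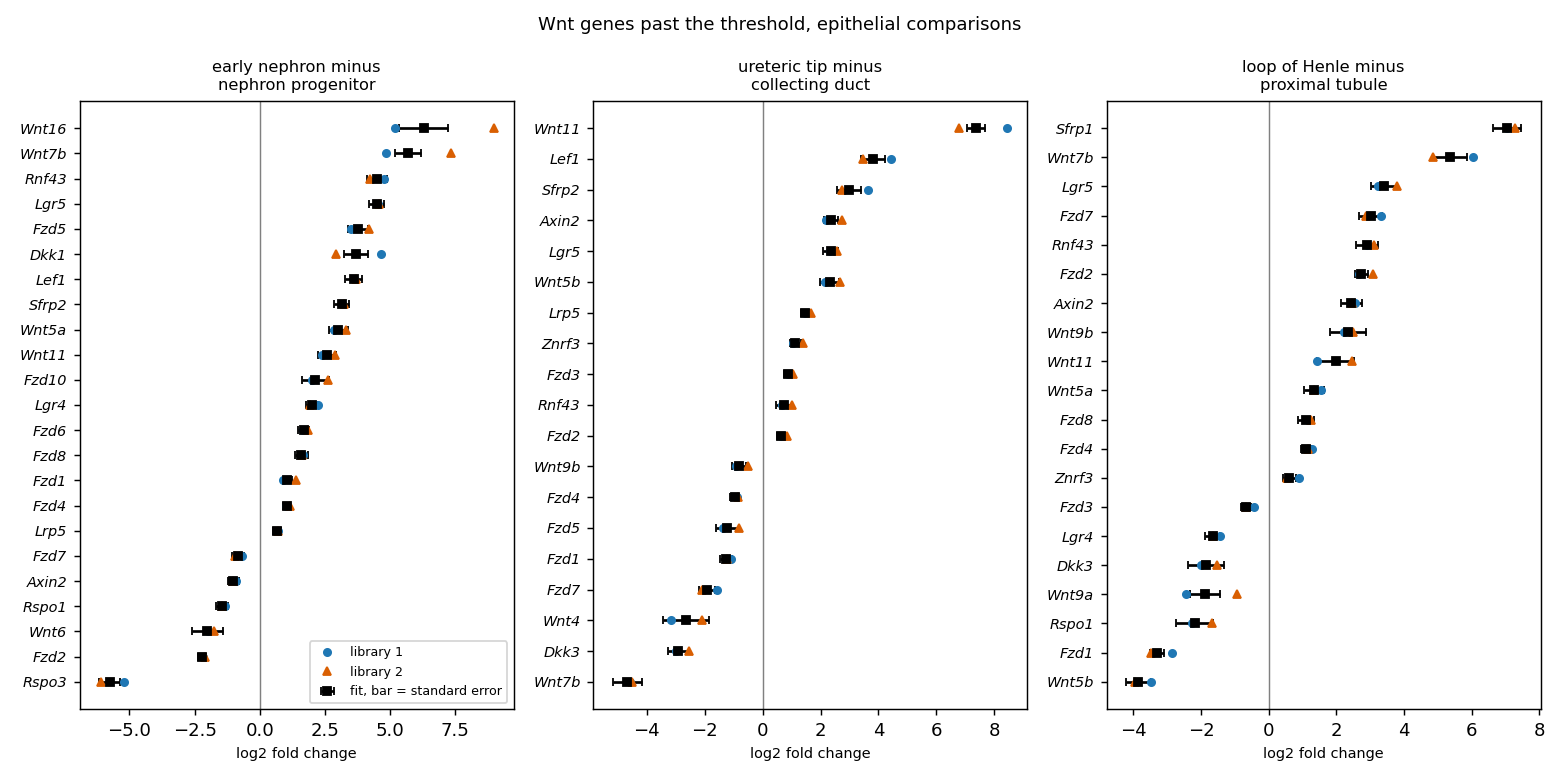
Squares give the fitted log2 fold change (bar, standard error) and the circle and triangle the log2 ratio within library 1 and library 2, for members past the threshold in 3 comparisons; members with 3 or fewer UMIs on a side are left out. Values right of 0 are higher in early nephron, ureteric tip or loop of Henle, and in each row both libraries lie on the same side of 0 as the fit.

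Stroma was divided by Foxd1, which marks the outer, cortical stroma, and Penk, which marks deeper stroma; a cell with a Foxd1 UMI counted as Foxd1-positive whatever its Penk count. Median depths were similar, 11922 and 16891 UMIs in Foxd1-positive cells and 11196 and 16395 in Penk-positive cells. Of 36 members, 4 were higher in Foxd1-positive stroma and 8 in Penk-positive stroma (edgeR quasi-likelihood test with Benjamini-Hochberg adjustment). Over all genes tested, 1.42% were higher and 2.06% lower in Foxd1-positive stroma. The 12 called members were 33.3% of those tested; the median log2 fold change of the 36 was -0.24 and that of all genes tested 0.03.

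On the Foxd1-positive side were Rspo3, Dkk1, Dkk2 and Fzd8. Dkk3 went the other way, at 19.4 and 21.5 CPM against 31.4 and 39.8 CPM in Penk-positive stroma, and did not pass the threshold. Rspo3 was 66.3 and 72.3 CPM against 17.0 and 15.9 CPM in Penk-positive stroma (2.11 ± 0.34, adjusted p = 6.4e-04), and Dkk1 was 213 and 123 CPM against 63.8 and 23.9 CPM (2.01 ± 0.37, adjusted p = 0.0018). Dkk2 was 119.6 and 104 CPM against 49.2 and 17.2 CPM (1.92 ± 0.50, adjusted p = 0.03) and Fzd8 10.1 and 5.54 CPM against 4.57 and 1.81 CPM (1.31 ± 0.36, adjusted p = 0.049). Of these, 3 lost the call under some setting: Dkk1 had an adjusted p of 0.13 with DESeq2, Dkk2 of 0.24 with DESeq2, 0.22 without the library block and 0.13 after subtracting free RNA, and Fzd8 lost its call under 6 settings, with adjusted p between 0.057 and 0.15.

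On the Penk-positive side were 4 ligands, both targets, Fzd10 and Lgr4. Wnt4 was 113 and 246 CPM there against 7.17 and 7.17 CPM in Foxd1-positive stroma (-4.65 ± 0.77, adjusted p = 7.2e-04), Wnt11 34.0 and 53.2 CPM against 6.59 and 9.23 CPM (-2.42 ± 0.25, adjusted p = 4.1e-06) and Wnt5a 94.96 and 88.7 CPM against 33.2 and 28.7 CPM (-1.54 ± 0.30, adjusted p = 0.0032). Wnt6 was low on both sides, at 4.36 and 4.89 CPM against 0.970 and 0.651 CPM (-2.51 ± 0.53, adjusted p = 0.01). Lef1 was 67.3 and 129 CPM against 8.73 and 11.8 CPM (-3.20 ± 0.36, adjusted p = 8.2e-06), and Axin2 25.7 and 28.2 CPM against 10.7 and 9.66 CPM (-1.38 ± 0.25, adjusted p = 0.0016). Fzd10 was 11.1 and 30.05 CPM against 0.582 and 0.326 CPM (-5.54 ± 0.74, adjusted p = 8.1e-05) and Lgr4 81.2 and 107 CPM against 37.6 and 37.8 CPM (-1.29 ± 0.24, adjusted p = 0.0019). In the stromal cluster led by Nts and Cxcl14, Wnt11 was 64.4 and 82.0 CPM, Lef1 142 and 208 CPM, Axin2 45.8 and 39.8 CPM and Fzd10 29.6 and 50.7 CPM. These genes and Wnt4 were lower in every other stromal cluster with at least 20 cells in each library. Penk-positive cells made up 12.1% to 33.9% of those other clusters, so the class values are averages over unlike clusters.

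Of the 58 other pathway genes 2 were higher in Foxd1-positive and 8 in Penk-positive stroma. Apcdd1, a membrane inhibitor of Wnt signals, was 56.6 and 132 CPM in Penk-positive against 7.37 and 9.45 CPM in Foxd1-positive stroma (-3.41 ± 0.39, adjusted p = 9.3e-06). Sostdc1 (-2.31 ± 0.53, adjusted p = 0.013), Nkd1 (-1.90 ± 0.35, adjusted p = 0.0019) and Prickle1 (-1.72 ± 0.29, adjusted p = 8.9e-04) had the next largest changes to that side. Ror1, a receptor for Wnt5a, was 413 and 408 CPM in Foxd1-positive and 248 and 178 CPM in Penk-positive stroma (0.98 ± 0.26, adjusted p = 0.035), and Prickle3 was higher in Foxd1-positive stroma too (0.90 ± 0.22, adjusted p = 0.023).

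Mural cells were compared with the mean of the 3 stroma classes. The fit averaged these classes on the log2 scale, while the stroma CPM given here are arithmetic means. Ratios of the CPM therefore differ from the fold changes. Of 36 members, 3 were higher and 11 lower in mural cells (edgeR quasi-likelihood test with Benjamini-Hochberg adjustment), against 11.0% and 10.4% of all genes tested. The 3 higher members were Dkk2, at 1442 and 881 CPM against 143 and 89.1 CPM (3.66 ± 0.34, adjusted p = 2.5e-08), Sfrp2, at 142 and 401 CPM against 29.5 and 25.5 CPM (3.46 ± 0.21, adjusted p = 4.0e-11), and Fzd4, at 33.1 and 29.7 CPM against 16.9 and 14.5 CPM (1.003 ± 0.18, adjusted p = 2.0e-04). Sfrp1 was lower, at 8.78 and 11.8 CPM against 329 and 553 CPM (-5.35 ± 0.43, adjusted p = 2.6e-09), and so was Dkk1, at 4.05 and 1.24 CPM against 137 and 70.7 CPM (-5.09 ± 0.64, adjusted p = 2.5e-06). Dkk2 and Sfrp2 were thus higher in mural cells and Dkk1, Dkk3 and Sfrp1 in stroma, where Dkk1 was highest in the cluster whose leading genes included the mural markers Abcc9 and Kcnj8. The median log2 fold change of the members was -0.79 and that of all genes tested -0.09.

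Receptors Fzd1 (-1.75 ± 0.18, adjusted p = 1.5e-07), Fzd2 (-1.53 ± 0.16, adjusted p = 1.5e-07) and Lgr4 (-0.85 ± 0.26, adjusted p = 0.02) were lower in mural cells, as were Wnt5b (-1.96 ± 0.36, adjusted p = 3.0e-04), Dkk3 (-2.54 ± 0.37, adjusted p = 1.8e-05) and Lef1 (-2.52 ± 0.56, adjusted p = 0.0018). Wnt11 had 1 UMI in mural cells and 649 in stroma, a ratio per UMI of 61.3 (exact 95% interval 10.96 to 2424). Wnt6 had no UMI in mural cells and 72 in stroma, at least 2.27-fold lower at the floor of 3 counts over both libraries; its call was lost under the stricter gate and with Leiden clusters (adjusted p = 0.073 and 0.065). Fzd3 was slightly lower (-0.52 ± 0.17, adjusted p = 0.032), a call lost under 8 settings with adjusted p between 0.056 and 0.083. Of the 58 other pathway genes 12 were higher and 11 lower in mural cells, led by Tle2 (2.74 ± 0.42, adjusted p = 3.1e-05), Apc2 (2.54 ± 0.68, adjusted p = 0.0089), Gpc4 (2.15 ± 0.21, adjusted p = 4.7e-08) and Tnfrsf19 (1.76 ± 0.54, adjusted p = 0.023) among the former and Gpc3 (-2.11 ± 0.17, adjusted p = 3.5e-09), Prickle1 (-2.10 ± 0.29, adjusted p = 9.5e-06), Nkd2 (-1.49 ± 0.39, adjusted p = 0.0077) and Tcf7 (-1.43 ± 0.36, adjusted p = 0.0054) among the latter.

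**Figure D5:**
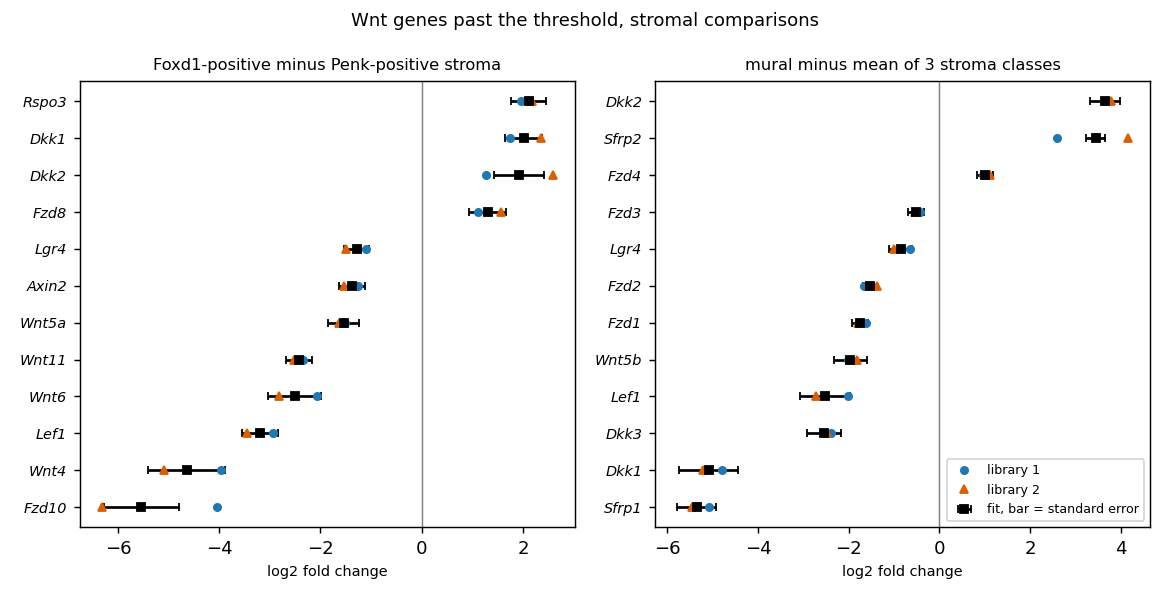
Fitted log2 fold changes (squares; bar, standard error) and the log2 ratios within library 1 (circles) and library 2 (triangles) for members past the threshold in both stromal comparisons; members with 3 or fewer UMIs on a side are left out. Rspo3, Dkk1, Dkk2 and Fzd8 lie on the Foxd1-positive side and 8 genes on the Penk-positive side, and Dkk2 and Sfrp2 lie far to the mural side.

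The 14 members that did not pass the filter were Fzd9, Sfrp4, Sfrp5, Dkk4, Rspo2, Rspo4, Wnt1, Wnt2b, Wnt3, Wnt3a, Wnt7a, Wnt8a, Wnt10a and Wnt10b. They had between 2 and 254 UMIs over all cells and a mean of the libraries of at most 3.45 CPM in any fitted type. Without the filter on low counts, when 26670 genes were tested, 40 members differed between types, so at least 4 of these 14 did. The share of all genes that differed under that setting is not given here, so the count is not read as a result about these members. Genes overlapping another listed gene could share its reads, since the sources used here do not state how strand was treated. This concerns 14 of the 50 members, 12 of them with a gene on the opposite strand (Axin2, Fzd6, Lef1, Lgr5, Rspo1, Rspo3, Rspo4, Sfrp2, Wnt5a, Wnt5b, Wnt6 and Wnt7b) and 2 with one on the same strand (Rnf43 and Wnt2b).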

How the data were processed

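Kidney cells were processed on the Chromium system as a 3' assay, per the labels. The deposited values are raw UMI counts per gene and barcode, made with Cell Ranger 4 per the file headers and Cell Ranger 6.0.1 on mm10 per the submitters' processing notes. The matrices hold 2761081 and 2545815 barcodes; library totals are 200331687 and 173166168 UMIs, of which 146529005 and 129083192 lay in kept cells.

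Each marker's log normalized count was divided by its 99.5th percentile times 0.5, limited to 1 and averaged per type. A cell took the top type at a score of at least 0.3 and a lead of at least 0.1. Glial and adrenal gates were dropped because too few of their markers could be scaled. Counts were summed per library and type and fitted with edgeR 4.0.16 (TMM, filterByExpr, type means, library as a block; 32 sums, 15 residual degrees of freedom; two-sided). Benjamini-Hochberg adjustment covered the 16820 tested genes that were not markers. No doublet caller was used beyond leaving out the 632 cells close to a second gate; an alternative also removed 245 and 142 cells by Scrublet score.

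Data were simulated for the early nephron comparison over 15339 genes. In these, 78 of 100 2-fold and 96 of 100 4-fold changes were recovered, with 6 false calls among 15145 unchanged genes. The simulation gave each unchanged gene the same share in all types, all genes the same spread, and no library effect. The real data differ in these respects, so the figures are not error rates of the reported tests. Alternatives were depth and mitochondrial limits, a stricter gate, Leiden clusters (scanpy 1.11.5), DESeq2 1.42.0, other scaling, no filter, no block, free RNA subtracted, the compared types alone and each library alone. Every member is named, with library values at 20 CPM or more in a type; of other pathway genes at most the 4 largest calls per direction and comparison are. Members, lists and rules were chosen with earlier results of these data known. Intervals cover counting error only. Sequences are RefSeq's and positions GENCODE M21's (GRCm38).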

Additional observations from a re-analysis of the deposited data

Results flagged for a closer look

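Urothelium-like cells, 17 in library 1 and 10 in library 2, were in no comparison because the type was too small, yet 5 ligands exceeded there the limit that a count of 0 allows, 7.71 and 8.11 CPM (3 UMIs), in both libraries. Wnt4 averaged 203 CPM (159 and 246, from 62 and 91 UMIs). Wnt6 averaged 63.5 CPM (51.4 and 75.7, from 20 and 28 UMIs). Wnt7b averaged 54.2 CPM (46.3 and 62.2, from 18 and 23 UMIs). Wnt5a averaged 49.4 CPM (77.1 and 21.6, from 30 and 8 UMIs), with the libraries far apart. Wnt10a averaged 27.8 CPM (20.6 and 35.1, from 8 and 13 UMIs). No test was made on these values. The median score of these cells for another type reached 0.31, the largest such value of any type and above the gate's minimum of 0.3. Of the markers listed for urothelium, Upk2 and Krt5 could not be scaled and were not scored.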

How the results depend on the processing

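Counts of called members stayed within 1.5 times the reported count under every alternative that gave one (edgeR or DESeq2, adjusted p below 0.05). They ranged from 36 to 40 between types, from 23 to 30 for early nephron against progenitor, from 18 to 26 for tip against duct, from 10 to 15 for Foxd1-positive against Penk-positive stroma, from 13 to 15 for mural cells against stroma and from 21 to 27 for loop against proximal tubule. Leiden clusters gave no separate tip class, so tip against duct has no value there. Shares over all genes are given above for the reported fit only. The library block pairs the types of each library; without it the counts were 36, 23, 18, 10, 13 and 22 in that order. Of 91 single changes called, 79 kept direction and call under every alternative that gave a test. Each library alone gave a direction but no test, and no change reversed there. A further 11 lost the call under at least 1 alternative and are named in the text. Wnt11 in loop against proximal tubule reversed to -0.41 under the stricter gate, and the cause was not tested. With 2 libraries and 61 and 42 tip cells, 47 to 67 intercalated cells and low counts for Wnt6, Wnt16 and Fzd10, depth limits what can be said of those types and genes.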
